A study of Mus musculus with 6 samples.

Results

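The genes described here encode the proteasome, apart from the immunoproteasome subunits Psmb8 and Psmb9. They are the rows of the expression table whose symbol begins with Psm, a letter from a to g, and a number, without pseudogene rows. There were 48 such genes among 25215. The choice used symbols only and no measured value. Of the 48, 46 had TPM above 0 in more than 5 retained cells and were compared, and Psma8 and Psmb11 were listed at 0 in every retained cell.

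The cells came from subcutaneous tumors of B16-F10, a mouse melanoma line, in C57BL/6 mice that each received 50000 tumor cells. The B16 group held 2 untreated tumors (B16007 and B16008). The B16PD1 group held 2 tumors (B16PD1000 and B16PD1002) of B16-bearing mice given 200 µg of anti-PD1, an antibody that blocks the T cell checkpoint receptor PD1, on days 5, 8, and 11. The R499 group held 2 untreated tumors (R499015 and R499016) of Res499, a B16-F10 derivative that resists checkpoint blockade. Per the study, Res499 was made from 1 tumor that relapsed after radiation combined with anti-CTLA4, against another inhibitory receptor. It therefore stands for 1 line. Tumors were harvested on day 15 in all groups, cells negative for the leukocyte protein CD45 were sorted, and full-length libraries were made from single cells. The ages of the mice were not given in the sources used here, and injection was on both flanks, so a tumor name may cover tissue of either side.

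After cells with few genes or a high mitochondrial share were removed, 507 of 602 cells remained, with 75 to 91 per tumor. The median number of genes detected (TPM above 0) per cell ranged from 3141 in R499015 to 3838.5 in B16PD1002. Melanocytic markers were detected in 7 of 7 cases, each in 65.1% to 100% of cells. The 16 immune markers were each found in at most 5.52% of cells, with Cd3d, Cd8a, Nkg7, Ms4a1, and S100a9 at 0, and Ptprc, which encodes CD45, in 0.197%. Their summed mean TPM was 292 in B16007, 20.2 in B16008, 39.1 in B16PD1000, 233 in B16PD1002, 10.4 in R499015, and 8.24 in R499016, against 14048 to 17188 for the melanocytic markers. Values of Psme1, Psme2, and Psmb10 are also given without the 78 cells that had any immune marker. Fibroblast and endothelial markers were each in at most 1.58% of cells, and 5 of 5 keratinocyte markers were at 0. No well position was shared between tumors.

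The proteasome degrades proteins that carry ubiquitin. Its core is a barrel of outer alpha rings (Psma genes), which gate the entrance, and inner beta rings (Psmb genes), which hold the proteolytic sites. The regulatory cap has a base with 6 ATPases (Psmc genes) that unfold substrates and a lid (most Psmd genes) that removes ubiquitin. Interferon induces alternative catalytic subunits, Psmb8, Psmb9, and Psmb10, which take the places of Psmb5, Psmb6, and Psmb7, and the activator chains Psme1 and Psme2, which open the core without the cap. This form shapes the peptides presented on MHC class I molecules. Other members are the activators Psme3 and Psme4, the inhibitor Psmf1, and the assembly chaperones Psmg1 to Psmg4, Psmd5, Psmd9, and Psmd10. Psma8 is known from the testis, and Psmb11 from thymic epithelium. Psmc3ip matched by its name only: it encodes a partner of the ATPase Psmc3 that acts with recombinases in DNA repair and meiosis.

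Because interferon-induced genes often carry an element to which interferon regulatory factors bind, the RefSeq promoters (GRCm38.p6, 250 bases before to 50 bases after the gene start) were searched on both strands for GAAANNGAAA. The letters were found in 3.44% of 32851 promoters of the genome. Of the 48 members 40 were listed, with 43 promoters, and 5 of these 43 (11.6%), each of another gene, held the letters. The 5 stretches are shown on the strand of the gene, because they show which members hold these letters. The match is in capitals (as GAAANNGAAA, or as its complement TTTCNNTTTC).
Psme1, chr14:55578493-55578522: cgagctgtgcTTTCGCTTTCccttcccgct
Psmb3, chr11:97703261-97703290: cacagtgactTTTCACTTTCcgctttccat
Psmd4, chr3:95042675-95042704: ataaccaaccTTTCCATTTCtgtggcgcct
Psmd9, chr5:123228021-123228050: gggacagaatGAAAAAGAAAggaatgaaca
Psmg4, chr13:34162969-34162998: gcgcgcatctGAAAGTGAAAgagcgttccg
The promoters of Psme2 and Psmb10 did not hold these letters in this window. A match is a description of letters and not a measured binding site.

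Subunits of the core and cap were abundant and found in most cells. TPM is scaled per transcript length, so that levels of different genes can be set side by side, and the level given here is the mean TPM of a tumor averaged over the 6 tumors. The 31 standard subunits (14 of the core and 17 of the cap) had a median level of 302 TPM. A median subunit was detected in 90.1% of the 507 cells, and a cell of a given tumor had a median of 28 to 30 of the 31 subunits detected.

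**Figure D1:**
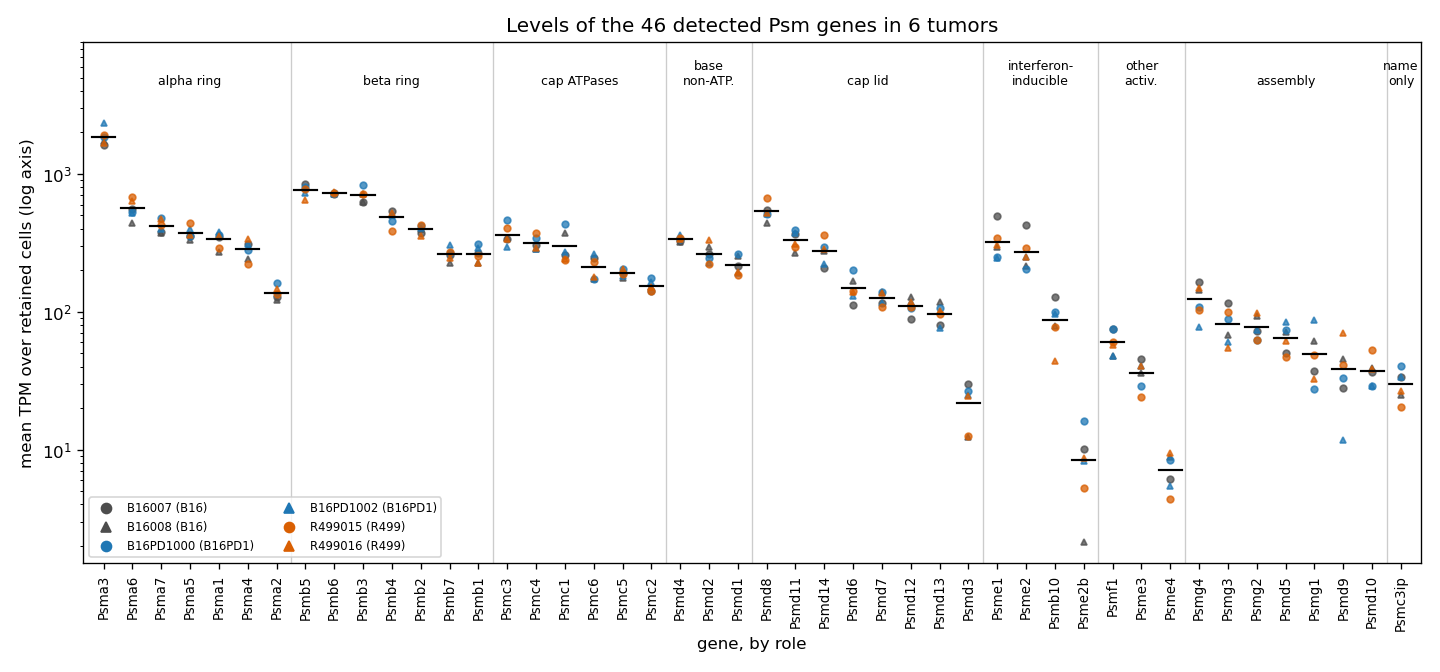
Mean TPM over retained cells (log axis) of the 46 Psm genes detected, ordered by role and by level. Each symbol is 1 of 6 tumors and each bar is their mean. Alpha and beta ring genes lie mostly above the lid genes, Psma3 is the highest at a mean of 1855 TPM, and Psmd3 is the lowest standard subunit at 21.8 TPM.

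Within the alpha ring, with a median of 373 TPM, Psma3 was the highest gene and Psma2 the lowest, at 138 ± 14.7 TPM (SD, n = 6 tumors). Psma3 had 1614 TPM in B16007, 1732 in B16008, 1845 in B16PD1000, 2343 in B16PD1002, 1931 in R499015, and 1666 in R499016. It was the highest of the 31 subunits in every tumor, and its lowest tumor was above the highest value of any other subunit. The alignment of transcripts gives a limit to this value: 3 processed pseudogenes that the table does not list match Psma3 at 96.5% to 100% identity over at least 685 bases, so reads of these copies, if any, could be counted in it.

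In the beta ring, with a median of 486 TPM, the catalytic subunit Psmb5 was the highest at 764 ± 70.6 TPM and the structural subunit Psmb1 the lowest at 262 ± 34.0 TPM (SD, n = 6). Psmb6, which carries the caspase-like site, was the steadiest, with 710 to 743 TPM over the 6 tumors. Psmb7, which carries the trypsin-like site, was at 264 ± 27.1 TPM, so the catalytic subunits, which stand in equal number in an assembled core, differed in transcript level. A processed pseudogene without values here matches Psmb5 at 98.9% identity over 796 bases, so its reads, if any, could be counted in Psmb5. No such copy was found for Psmb6 or Psmb7.

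The cap was lower than the core. The ATPases had a median of 257 TPM, from Psmc2 at 154 ± 13.3 to Psmc3 at 363 ± 59.5 TPM (SD, n = 6). The non-ATPase base subunits lay between Psmd1, a scaffold, at 217 ± 33.8 TPM and Psmd4, a ubiquitin receptor, at 338 ± 14.8 TPM. As a ratio, the lid spanned the widest range of any role among the 31 subunits, from Psmd3 at 21.8 ± 7.45 TPM to Psmd8 at 534 ± 76.0 TPM.

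Psmd3 stood apart from the other lid genes. Its mean TPM was 29.8, 12.4, 26.8, 24.7, 12.5, and 24.4 in B16007, B16008, B16PD1000, B16PD1002, R499015, and R499016. It was the lowest of the 31 subunits in every tumor, and it was found in 40.8% of cells (95% Wilson interval 36.6 to 45.2%) against 97.4% for Psmd8. The ratio of the highest to the lowest subunit within a tumor ran from 54.2 to 154.

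Taken as medians over subunits, the log2 ratio of core to cap was 0.84 ± 0.14 (SD, n = 6 tumors), with 0.80 in B16007, 0.60 in B16008, 0.85 in B16PD1000, 0.85 in B16PD1002, 0.94 in R499015, and 1.03 in R499016. The core was above the cap in 6 of 6 tumors. With the median TPM over cells in place of the mean the ratio was 1.23. The log2 ratio of alpha to beta ring was -0.40 ± 0.23 and was below 0 in every tumor but R499015, where it was 0.000743. The log2 ratio of ATPases to lid was 0.85 ± 0.24, above 0 in 6 of 6 tumors.

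Assembly factors and the other regulators were transcribed at lower levels. The 7 assembly chaperones had a median of 64.5 TPM, from Psmd10 at 37.5 to Psmg4 at 125 TPM, and were detected in 38.5% to 67.9% of cells. Psmf1, the inhibitor, was at 60.6 ± 12.2 TPM and the large activator Psme4 at 7.12 ± 2.08 TPM (SD, n = 6). Psme4 was still seen in 34.9% of cells, whereas Psmg4, at a higher level, was seen in 38.5%. Psma8 and Psmb11 were found in 0 of 507 cells (95% Wilson interval 0 to 0.752%, counting error only).

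**Figure D2:**
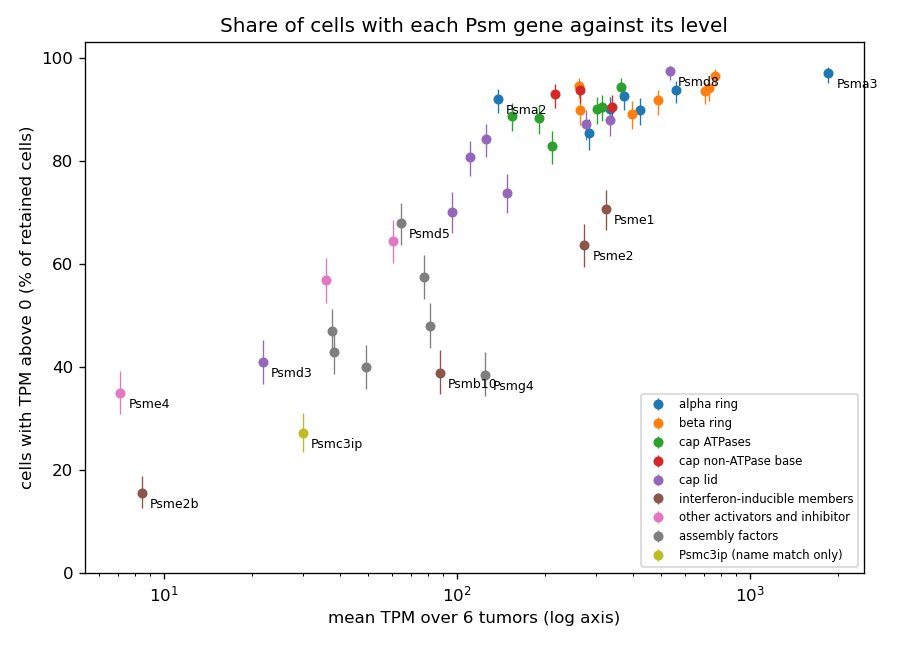
Percentage of the 507 retained cells with TPM above 0 against the mean TPM over 6 tumors (log axis) for the 46 genes, colored by role, with 95% Wilson intervals. Psme1, Psme2, and Psmb10 lie below the core and cap subunits of like level: Psme1 was detected in 70.6% of cells, and Psmc3, at a similar level, in 94.3%. The assembly factor Psmg4 also lies below them, at 125 TPM in 38.5% of cells.

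Psme1, Psme2, and Psmb10 were detected in fewer cells than standard subunits of like level. Psme1 (chr14:55578123-55581529, plus strand, GRCm38) was at 323 ± 92.0 TPM and in 70.6% of cells (66.5 to 74.4%). Psme2 (chr14:55587441-55591113, minus strand) was at 272 ± 81.1 TPM and in 63.7% of cells (59.4 to 67.8%). For comparison, the 31 standard subunits other than Psmd3 were each in at least 70.0% of cells, and those of 200 TPM or more in at least 82.8%. Psmb10 (chr8:105935735-105938444, minus strand) was at 87.5 ± 28.0 TPM and in 38.9% of cells (34.7 to 43.2%), and the lid subunit Psmd13, at 96.3 TPM, was in 70.0%. Low detection for the level was not particular to these genes. Among assembly factors, Psmg4 had 125 TPM in 38.5% of cells and Psmg3 81.1 TPM in 47.9%, and the lid subunit Psmd12, at 111 TPM, was in 80.7%. Another assembly factor, Psmd5, was in 67.9% at 64.5 TPM. Psme2b, a near copy of Psme2 on chromosome 11 that shares 99.4% identity over 794 bases, had 8.42 ± 4.70 TPM in 15.4% of cells. Reads could be split between these copies, and the annotation also places Emc9 on the opposite strand at the end of Psme1.

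Psme1, Psme2, and Psmb10 varied more between tumors in mean log2(TPM + 1) than the standard subunits did, most of which were found in more cells. The SD over the 6 tumors of the mean log2(TPM + 1) was 0.84 for Psme1, 0.63 for Psme2, and 0.67 for Psmb10, against a median of 0.35 and a highest value of 0.57 over the 31 core and cap subunits. The assembly factors, in 38.5% to 67.9% of cells, had an SD of 0.32 to 0.55. Psmf1, in 64.5% of cells, had 0.58, and Psme2b, in 15.4%, had 0.28. Psme1 had a mean log2(TPM + 1) of 7.04 in B16007, 4.61 in B16008, 5.74 in B16PD1000, 5.13 in B16PD1002, 6.05 in R499015, and 6.01 in R499016. The same scale gave Psme2 6.23, 4.49, 4.98, 5.07, 5.33, and 4.59 in that order, and Psmb10 3.60, 2.08, 2.43, 3.47, 2.31, and 2.21. On this scale, the highest and the lowest tumor of each of the 3 genes were B16007 and B16008, which belong to the same condition. By mean TPM, B16007 was again the highest, but the lowest tumor was B16PD1002 for Psme1 (246 TPM, against 294 in B16008), B16PD1000 for Psme2 (204 against 217), and R499016 for Psmb10 (44.0 against 79.1). Relative to its mean TPM, the standard subunit Psmd3 varied more (SD 7.45 at 21.8 TPM) than these 3 genes. Their SD was 92.0 at 323 TPM for Psme1, 81.1 at 272 for Psme2, and 28.0 at 87.5 for Psmb10. The other standard subunits varied less than these 3 genes in TPM as well.

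An interferon score, the mean log2(TPM + 1) of 44 interferon-stimulated genes that include no Psm gene, also had its highest value in B16007 and its lowest in B16008: it was 2.06, 0.91, 1.27, 1.79, 1.63, and 1.28 in the order above. Between these extremes Psme1 did not follow the order of the score. B16PD1002 had a score of 1.79 and Psme1 at 5.13, and R499016 had a score of 1.28 and Psme1 at 6.01. The mean over the 31 core and cap subunits was 7.13, 6.75, 7.28, 7.10, 6.85, and 6.88, a narrower span than that of Psme1. B16007 and B16PD1002, which had the highest interferon score and Psmb10 level, also had the highest sums of immune markers. The share of cells with any immune marker had another order. It was lowest in B16007 at 9.89%, 18.2% in B16PD1002, and highest in R499016 at 20%. In the 429 cells without any immune marker, Psmb10 was at 3.39, 1.68, 2.53, 3.09, 2.23, and 2.01. Psme1 was then at 7.09 in B16007, 4.56 in B16008, and 4.65 in B16PD1002. The interferon score of these tumors was 2.0, 0.90, and 1.72 in the same cells. Psme2 was at 6.30 in B16007 and 4.29 in B16008, with R499016 lowest at 4.21.

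**Figure D3:**
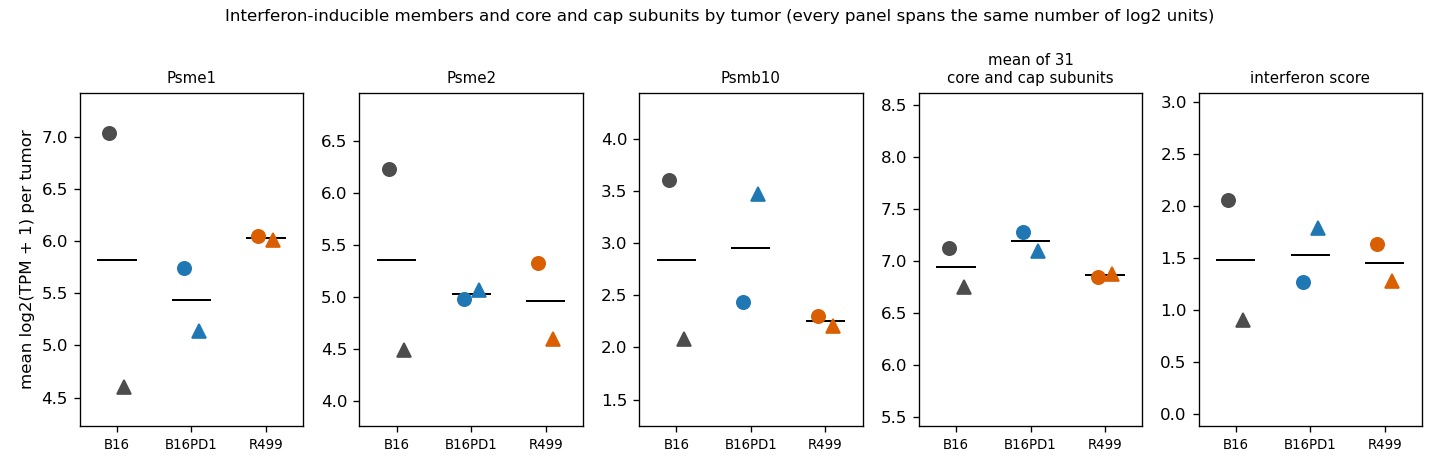
Mean log2(TPM + 1) per tumor for Psme1, Psme2, Psmb10, the mean of the 31 core and cap subunits, and the interferon score, by condition. Symbols are tumors, bars are condition means, and each panel spans the same range of log2 units. The B16 tumors are the highest (B16007, circle) and the lowest (B16008, triangle) on this scale for each of the 3 interferon-inducible members, and the core and cap mean varies less.

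The transcript of an interferon-inducible subunit was set against that of the subunit it replaces. Psmb10 amounted to 49.1% of the TPM of Psmb7 in B16007, 35% in B16008, 37.1% in B16PD1000, 31.6% in B16PD1002, 28.5% in R499015, and 17.8% in R499016. Psmb8 amounted to 0.338% to 7.20% of Psmb5, and Psmb9 to 1.0% to 10.1% of Psmb6. Psmb10 was thus the highest of the 3 relative to its standard counterpart in every tumor. Psme1 and Psme2, whose products join in a mixed ring, were close in level, with Psme1 at 99.2% to 136% of Psme2. Psme3, which forms its own ring in the nucleus, was at 7.01% to 16.4% of Psme1.

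Anti-PD1 treatment and R499 were compared with untreated B16 on the tumor means of log2(TPM + 1), with limma over all 11264 genes that passed the filter. No member passed an adjusted p of 0.05 in any of the 3 contrasts between conditions. Among all genes tested, 0% passed in B16PD1 minus B16, 0.0621% in R499 minus B16, and 0.071% in R499 minus B16PD1. The standard error of a member had a median of 0.33, and with 2 tumors a group the design had limited reach. In simulated data for R499 minus B16, 47% of genes changed by 1 and 84% of genes changed by 2 on the log2 scale were recovered. The changed genes were drawn at random from all genes tested, and the spread was drawn for each gene separately. The rates are therefore not rates for the members, and shifts common to a whole tumor were not simulated. The contrasts share tumors, so their values are not independent of each other.

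In B16PD1 minus B16, the median difference of the 46 members was 0.24, against 0.01 for all genes tested, and 35 of 46 differences were above 0, against 53% of all genes. The member median was 0.09 without B16008 and 0.43 without B16007, 0.08 by the log2 of the mean TPM of a tumor, and 0.05 with the number of genes detected as a covariate. The smallest p belonged to Psma1, an alpha ring subunit. Its mean log2(TPM + 1) was 7.49 in B16007, 6.57 in B16008, 7.78 in B16PD1000, and 7.92 in B16PD1002, a difference of 0.82 (SE 0.34, unadjusted p = 0.0260, adjusted p = 0.989, limma). The groups did not overlap for Psma1, but B16008 was 0.92 below B16007. Psmd5, an assembly chaperone, differed by 0.68 (adjusted p = 0.989) and Psme2b by 0.39 (adjusted p = 0.989). Only 1 member had an unadjusted p below 0.05, which is 2.17% of 46, against 4.69% of all genes. Groups did not overlap for 13 members that were higher and 1 that was lower (Psmb6), against 17.9% and 15.4% of all genes.

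The signs of the interferon-inducible members were not stable when a tumor was left out. In B16PD1 minus B16, Psme1 differed by -0.38 (SE 0.54), Psme2 by -0.33 (SE 0.46), and Psmb10 by 0.11 (SE 0.44), with adjusted p of at least 0.990. When B16007 was left out, the differences of Psme1 and Psme2 became 0.83 and 0.53, and when B16008 was left out that of Psmb10 became -0.65, none past the threshold. Without B16PD1002 the difference of Psmb10 was -0.41. In cells without any immune marker, Psme1 differed by -0.77, Psme2 by -0.36, and Psmb10 by 0.28.

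In R499 minus B16, the median member difference was -0.11, against -0.07 for all genes, with 16 of 46 differences above 0, against 35.8% of all genes. The sign of the member median was not stable: it was -0.26 without B16008 but 0.11 without B16007, 0.00475 by the log2 of the mean TPM, 0.05 with stricter filters on cells, and 0.19 with genes detected as a covariate. Psmd1, the scaffold of the base, had 6.80 and 6.95 in B16 and 6.37 and 6.13 in R499, which do not overlap, a difference of -0.63 (SE 0.32, unadjusted p = 0.0701, adjusted p = 0.511, limma). Psmb5, the chymotrypsin-like subunit, differed by -0.50 (adjusted p = 0.541), and Psmd7 of the lid by -0.54 (adjusted p = 0.620). No member had an unadjusted p below 0.05, against 10.5% of all genes. The groups did not overlap for 8 members, all lower in R499, and for no member that was higher, against 30.1% and 11.6% of all genes. Psme1, Psme2, and Psmb10 differed by 0.21, -0.40, and -0.59, with standard errors of 0.54, 0.46, and 0.44, and by 0.18, -0.55, and -0.41 in cells without any immune marker.

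In R499 minus B16PD1, the 46 members had a median of -0.39, against -0.09 for all genes, and 7 of 46 differences were above 0, against 32.8% of all genes. Psmc2, an ATPase, had 6.65 in B16PD1000, 6.74 in B16PD1002, 5.84 in R499015, and 6.02 in R499016, a difference of -0.77 (SE 0.31, unadjusted p = 0.0247, adjusted p = 0.425, limma). Psmd1 differed by -0.75 (SE 0.32, adjusted p = 0.457) and Psmb1 by -0.68 (SE 0.31, adjusted p = 0.469). These were the 3 members with an unadjusted p below 0.05, or 6.52% of 46, against 10.2% of all genes. The groups did not overlap for 22 members that were lower in R499 and 3 that were higher (Psma6, Psmd8, and Psme1), against 31.3% and 10.2% of all genes. Psme1, Psme2, and Psmb10 differed by 0.59, -0.06, and -0.70, and by 0.95, -0.19, and -0.69 in cells without any immune marker.

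The size of this median difference depended on the scale and on the treatment of genes detected. R499015 and R499016 had medians of 3141 and 3682 genes per cell, and B16PD1000 and B16PD1002 had 3807.5 and 3838.5. The median member difference was -0.39 as fitted, -0.25 when each cell was centered on its mean, -0.06 by the log2 of the mean TPM, and 0.16 with the number of genes detected as a covariate, with -0.09, 0.05, -0.03, and 0.01 for all genes. On the scale of mean TPM, Psmd1 overlapped, with 261 and 191 TPM in B16PD1 and 186 and 193 TPM in R499. Among cells of a tumor, the mean over the 31 subunits was correlated with the number of genes detected, with Pearson's r of 0.72 to 0.80. These were 75 to 91 cells that share a tumor and are not independent replicates.

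**Figure D4:**
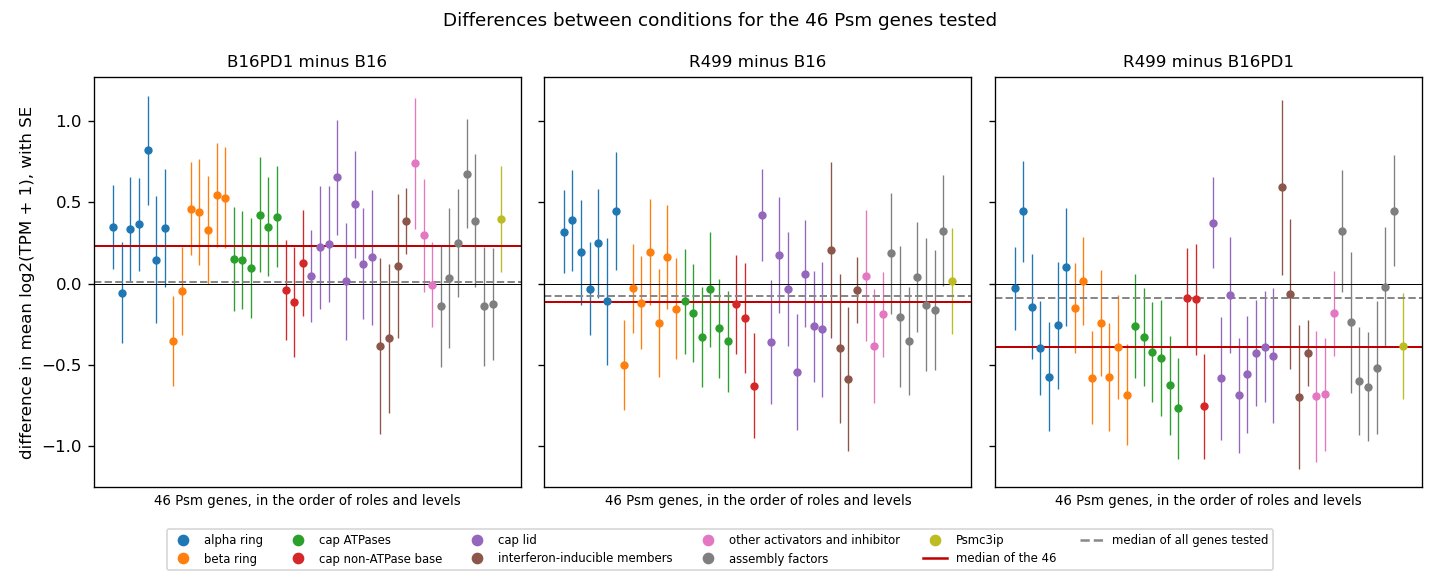
Differences in mean log2(TPM + 1) between conditions for the 46 members tested, with standard errors from limma, colored by role. The solid line is the median of the members (0.24, -0.11, and -0.39 from left to right), and the dashed line is the median of all genes tested (0.01, -0.07, and -0.09).

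Of 23 other pathway genes, which bind the proteasome, deliver substrates to it, or control its genes, 22 were found under 26 listed symbols that include older names, and all 22 passed the filter. The gene not found was Paaf1. None of them passed the adjusted threshold in a contrast between conditions. The smallest adjusted p was 0.344, for Ubqln2, a shuttle factor, in R499 minus B16PD1. Median differences of the 22 genes were 0.11, -0.17, and -0.34 in the order of the contrasts above.

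Cells of the same tumor differ in interferon response, which allows the members to be compared within tumors. In each tumor the interferon score of a cell was corrected for its number of genes detected, and the third of cells with the highest value was compared with the third with the lowest, 169 cells of each kind in all, by limma with tumor as a term. The score contains no Psm gene. The limits cut a continuous score, and 13 to 30 cells per tumor lay within 0.1 SD of one.

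Psme1 was higher in interferon-high cells and was the only one of the 46 members past the threshold, against 0.098% of all genes tested that passed and were higher. Its mean log2(TPM + 1) was 8.06 in high and 6.25 in low cells of B16007, 5.55 and 3.92 in B16008, 7.37 and 5.41 in B16PD1000, 6.59 and 5.29 in B16PD1002, 7.0 and 5.37 in R499015, and 6.54 and 6.02 in R499016. It was higher in 6 of 6 tumors, by 1.48 on average (SE 0.27, adjusted p = 0.0122, limma). Psme1 was detected in 83.4% of high cells (95% Wilson interval 77.1 to 88.3%) and 68.0% of low cells (60.7 to 74.6%). In cells without any immune marker the difference was 1.78 (adjusted p = 0.0260). The call was lost in 8 of 15 alternative settings, among them leaving out any of the tumors B16007, B16PD1000, B16PD1002, and R499015 (adjusted p of 0.131, 0.0620, 0.0584, and 0.0699), while the difference stayed between 0.70 and 3.19.

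Psme2 and Psmb10 did not pass. Psme2 had a difference of 1.54 (SE 0.40, adjusted p = 0.157), as large as that of Psme1 but less even: it was 3.17 in B16007, -0.29 in B16008, 2.98 in B16PD1000, 0.44 in B16PD1002, 0.47 in R499015, and 2.5 in R499016. Without B16008 its adjusted p was 0.0357. Psmb10 had a difference above 0 in 6 of 6 tumors, with a mean of 1.01 (SE 0.32, adjusted p = 0.416), with tumor differences from 0.18 in R499016 to 2.24 in B16PD1000. Psmb8 and Psmb9, the other inducible catalytic subunits, differed by 1.37 (adjusted p = 0.247) and 1.17 (adjusted p = 0.146).

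Differences were above 0 in every tumor for 4 of the 46 members (8.70%), namely Psme1, Psmb10, Psmg3, and Psmd7, against 1.24% of all genes. None of the 31 core and cap subunits passed. Their median difference was 0.10, with 20 of 31 above 0, while all genes had a median of -0.02 with 44.9% above 0. Of the 31, Psmd7 alone had an unadjusted p below 0.05, against 6.15% of all genes. When the score was not corrected for genes detected, 41 of 46 members passed, against 55.4% of all genes that passed and were higher, and the median difference was 1.31 for the members and 0.52 for all genes. After the correction, the median number of genes detected in high minus low cells still ran from -813 to 462 over the tumors.

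**Figure D5:**
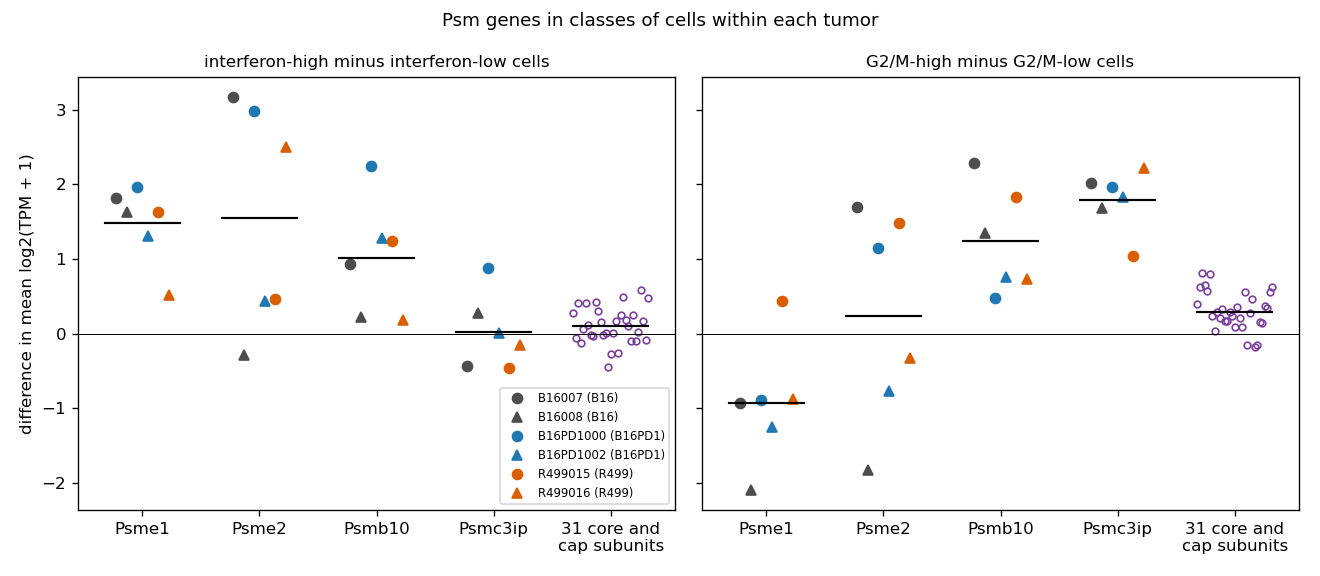
Difference in mean log2(TPM + 1) between high and low cells of the same tumor, for the interferon score (left) and the G2/M score (right). Filled symbols are tumors and bars are means, and open circles are the 31 core and cap subunits, each averaged over tumors, with their median as a bar. Psme1 is above 0 in 6 of 6 tumors on the left, and Psmb10 and Psmc3ip are above 0 in 6 of 6 on the right.

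The same comparison was made for cells with high and low expression of 46 genes of the G2 and M phases of the cell cycle, with 169 cells in each class. Psmc3ip and Psmb10 were higher in G2/M-high cells. They were the 2 of 46 members past the threshold, or 4.35%, against 2.64% of all genes that passed and were higher. They were also the 2 members above 0 in every tumor, against 4.46% of all genes.

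Psmc3ip (chr11:101091823-101095436, minus strand) had a mean log2(TPM + 1) of 2.36 in high and 0.35 in low cells of B16007, 2.29 and 0.61 in B16008, 2.98 and 1.01 in B16PD1000, 2.90 and 1.08 in B16PD1002, 1.57 and 0.53 in R499015, and 3.2 and 0.98 in R499016. The high class was above the low class in every tumor, by 1.79 on average (SE 0.26, adjusted p = 1.18e-04, limma). It was detected in 39.6% of high cells (95% Wilson interval 32.6 to 47.2%) and 14.2% of low cells (9.73 to 20.3%), and in 27.0% of all cells, at 29.8 ± 7.19 TPM (SD, n = 6 tumors). The call held in 15 of 15 alternative settings. The gene overlaps Mlx on the opposite strand, and strand use in the authors' counting was not given in the sources used here.

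Psmb10 had a mean log2(TPM + 1) of 5.10 in high and 2.82 in low cells of B16007, 3.49 and 2.14 in B16008, 2.59 and 2.11 in B16PD1000, 4.10 and 3.34 in B16PD1002, 3.5 and 1.67 in R499015, and 2.55 and 1.83 in R499016. It was higher in 6 of 6 tumors, by 1.24 (SE 0.31, adjusted p = 0.0225, limma), and was detected in 49.7% of high and 34.9% of low cells. The call was lost in 6 of 15 settings, among them leaving out B16007, B16008, or R499015 (adjusted p of 0.119, 0.0763, and 0.0981) and leaving out cells with any immune marker (a difference of 1.17, adjusted p = 0.0760). Of the G2/M-high cells 38.5% were also in the interferon-high class, and of the G2/M-low cells 31.4% were; its part in the difference of Psmb10 was not tested.

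For Psme1 the difference was -0.93 on average (SE 0.31, adjusted p = 0.107). It was below 0 in 5 of 6 tumors and 0.44 in R499015. Without R499015 the difference was -1.21 (adjusted p = 0.0406).

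Among the core and cap subunits 28 of 31 differences were above 0, against 45.2% of all genes. Their median was 0.28, and none of them passed the threshold. In high minus low cells, the median number of genes detected still ran from -592 to 639 over the tumors after the correction. This gap was above 0 in 4 tumors, and its part in the differences of the subunits was not tested. Psma7, Psma4, Psma5, and Psma6, all of the alpha ring, and Psmd3 had an unadjusted p below 0.05, with differences of 0.81, 0.80, 0.65, 0.62, and 0.62 and adjusted p of at least 0.177; of all genes, 15.7% had such a p. Among the 22 other pathway genes 1 passed: Uchl5, a deubiquitinase that docks on the cap, was higher by 1.89 (SE 0.29, adjusted p = 1.93e-04). Without the correction for genes detected, 34 of 46 members passed, against 25.1% of all genes that passed and were higher, and the median difference was 1.04 for the members and 0.28 for all genes.

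The differences between high and low cells were also compared between conditions. No member passed the adjusted threshold in any of these 6 tests of a difference of differences, and neither did any of the 11264 genes. From 536 to 644 genes and from 0 to 5 members had an unadjusted p below 0.05.

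Across cells of a tumor, after a linear correction for genes detected, transcripts of subunits that assemble in equal number were only weakly correlated. The mean over tumors of Pearson's r had a median of 0.08 over 91 pairs of core genes, 0.04 over 136 pairs of cap genes, and 0.06 over 238 pairs of a core and a cap gene, and the highest value of a pair was 0.27. Psme1 and Psme2 had a mean r of 0.08, positive in 4 of 6 tumors. Cells of a tumor are not independent replicates, and in sparse values of this kind a weak correlation is not a finding.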

How the data were processed

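Cells sorted as CD45 negative from 6 tumors were sequenced with Smart-seq on the ICELL8 system. Per the labels, the authors' processing used STAR, RSEM, and GATK with the build mm10; the study states STAR in 2-pass mode and RSEM with default parameters, and versions and annotation were not given in the sources used here. The authors deposited TPM, 1 value per gene and cell, for 25215 genes in 602 cells, before any filter. TPM is not a count, so depth in reads is unknown, and intervals on shares of cells cover counting error only.

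Retained were the 507 cells that had over 1000 genes detected and a mitochondrial share under 10% of TPM, and the 11264 genes found in more than 5 of them. A minimum of mapped reads that the study states could not be applied to TPM. Doublets were not called. A tumor was the replicate. Its value was the mean over cells of log2(TPM + 1), with a pseudocount of 1. A difference on this scale also depends on the share of cells at TPM 0. It can therefore be smaller or larger than the fold change of mean TPM. Psme1 was at 7.04 in B16007 and 4.61 in B16008 on this scale, and at 496 and 294 in mean TPM. Contrasts were fitted to 6 tumors in limma 3.58.1 (R 4.3.3, eBayes with a trend, two-sided, Benjamini-Hochberg over all genes, threshold 0.05). Column names carry tumor numbers that differ from the labels' replicate numbers, so a tumor was tied to its condition only, and nothing else says how its cells were drawn. Cells were classed within a tumor by the mean over an interferon list (44 of 46 genes passing the filter) or a G2/M list (46 of 46), regressed on genes detected; genes of a list were left out of counts over all genes. The tests of differences between conditions in these contrasts were chosen after seeing the data.

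Members and lists were chosen with earlier results of these data known. Named were members past the threshold, the 3 smallest p in each contrast of conditions, the highest and lowest member of each role, Psmb10, Psme1, Psme2, Psmc3ip, and members at 0. Genes named beside a count, or with their TPM, outside that rule were chosen after their values were seen. Psmb8 and Psmb9 appear only beside Psmb10. Psmb5-ps, Psmb7-ps2, and Psmb6-ps were at 0, and Psmb6-ps2 was in 1 cell. Positions came from GENCODE M21 (GRCm38, the assembly of mm10). Near copies (at least 95% identity over 200 bases, BLAST+ 2.17.0) were found for 14 members. Tables were made in Python 3.11.15 (pandas 2.3.3, numpy 2.4.6) and intervals in scipy 1.17.1, and plots in matplotlib 3.10.9. On simulated data, 200 of 11264 genes were changed: 131 were recovered with 4 other calls in R499 minus B16, 146 with 7 in the interferon classes, and 156 with 9 in the G2/M classes. Alternatives were pseudocounts of 0.1 and 10, the log2 of mean TPM, other filters on genes and cells, centered cells, genes detected as a covariate, no trend, other classes, and leaving out each tumor. Leaving out cells with any immune marker was added after seeing the data.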

Additional observations from a re-analysis of the deposited data

How the results depend on the processing

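No member was called in the 3 contrasts between conditions under any of the 17 alternatives to each, leaving out each tumor included (0 to 0). No paired analysis was possible because the columns carry tumor numbers that do not match the labels' replicate numbers. The count of members called between interferon classes (1) was 0 when each tumor was split at its median score, with the log2 of a class's mean TPM, without a filter on genes, and without a trend, 41 with an uncorrected score, and 0 to 2 when each tumor was left out. The count between G2/M classes (2) was 1 with the log2 of mean TPM, without a filter on genes, and without cells with any immune marker (chosen after seeing the data), 34 with an uncorrected score, and 1 to 2 when each tumor was left out. The log2 ratio of core to cap (0.84) was 1.23 by the median TPM over cells and 0.81 to 0.89 when each tumor was left out. Single genes reversed as follows. With the log2 of mean TPM, Psmb10 was -0.033 in B16PD1 minus B16, Psme1 was -0.24 in R499 minus B16, and Psme2 was 0.25 in R499 minus B16PD1. With genes detected as a covariate, Psmb10 was -0.44 in B16PD1 minus B16, 0.34 in R499 minus B16, and 0.79 in R499 minus B16PD1, and Psme2 was 0.58 and 1.49 in the latter pair. With stricter filters on cells, Psme2 was 0.027 in R499 minus B16 and 0.44 in R499 minus B16PD1. In the last contrast it was also 0.0092 with a pseudocount of 10 and 0.072 with centered cells. Leaving out a tumor reversed Psme1 and Psme2 in B16PD1 minus B16 (ranges -1.60 to 0.83 and -1.20 to 0.53), Psmb10 there (-0.65 to 0.87), Psme1, Psme2, and Psmb10 in R499 minus B16 (-1.01 to 1.43, -1.26 to 0.47, and -1.35 to 0.17), and Psme2 in R499 minus B16PD1 (-0.43 to 0.31). In the G2/M classes, Psme1 was 0.41 with an uncorrected score. Leaving out a tumor also lowered the number of tumors, and dropping the filter on genes raised the number of genes tested. The causes of these changes were not tested. Depth in reads is unknown, so a gene at TPM 0 in a cell may be below detection.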
